A study of Mus musculus with 8 samples.

Results

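The 9 genes described here encode paired or related forms of 4 subunits of cytochrome c oxidase, namely subunits 4 (Cox4i1, Cox4i2), 6a (Cox6a1, Cox6a2), 7a (Cox7a1, Cox7a2 and the related Cox7a2l) and 8 (Cox8a, Cox8b). They were listed by name and make up 9 of the 54385 gene identifiers in the deposited table; all 9 were found, and all 9 passed the filter on low counts. Polyadenylated RNA of brown adipose tissue was sequenced from 4 knockout (cKO) and 4 control (WT) libraries of 20-week-old C57BL/6N mice on a chow diet. The cKO mice were homozygous for a floxed allele of Adcy3, the gene of the cyclic AMP-producing enzyme adenylyl cyclase 3, and carried Adipoq-Cre, a recombinase driven by the adiponectin promoter and therefore active in adipocytes, not in the other cells of the fat pad. The WT mice were homozygous for the same floxed allele and, by their group name, lacked the Cre. WT replicate 4 is WT by its title, but its genotype entry carries the Cre. The sample labels place the tissue between the shoulder blades, whereas the series text calls it inguinal. Nothing states whether each library came from its own animal or from pooled tissue, so what the p-values measure is the spread among libraries, which may be technical.

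Cytochrome c oxidase, complex IV of the mitochondrial respiratory chain, passes electrons from cytochrome c to oxygen and pumps protons. Its catalytic core is encoded by the mitochondrial genome, and small nuclear-encoded subunits surround that core. Several of these small subunits exist as a form made in nearly all tissues and a form restricted to contractile or thermogenic tissue. Cox6a2, Cox7a1 and Cox8b are the heart and skeletal muscle forms, and Cox7a1 and Cox8b are also abundant in brown fat. Cox4i2 is known from lung and from oxygen-sensing cells. Cox7a2l, also called SCAF1, has been tied to supercomplexes of complexes III and IV and is not a plain alternative to Cox7a2. Whether it has that role in these mice was not tested.

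Paired forms can only be compared if reads are assigned to the right one, so their coding sequences were compared (GRCm38, GENCODE release M21). No 31-base sequence was shared between the transcripts of any of the 5 pairs. With other genes, 18.5% of the 31-base sequences of Cox6a1 were shared, 16.6% of Cox7a2l and 12.9% of Cox4i1. Cox6a2 shared 6.15% and Cox7a2 3.40%, and the remaining members none. For Cox6a1 these included 129 sequences of the pseudogene AC148174.2, which had 0 counts. Coding sequences were 63.9% identical for Cox4i2 and Cox4i1, 61.6% for Cox7a1 and Cox7a2, 56.5% for Cox6a2 and Cox6a1, 53.4% for Cox8b and Cox8a, and 48.7% for Cox7a2l and Cox7a2. The muscle and ubiquitous forms of subunits 6a and 8 are given 5′ to 3′ without the stop codon, with the longest run of bases that the forms of a pair have in common in capitals. That run was 12 bases in the 6a pair and 10 in the 8 pair. Cox6a1 is shown from base 37 to base 336 of its coding sequence and the others are whole.
Cox6a2: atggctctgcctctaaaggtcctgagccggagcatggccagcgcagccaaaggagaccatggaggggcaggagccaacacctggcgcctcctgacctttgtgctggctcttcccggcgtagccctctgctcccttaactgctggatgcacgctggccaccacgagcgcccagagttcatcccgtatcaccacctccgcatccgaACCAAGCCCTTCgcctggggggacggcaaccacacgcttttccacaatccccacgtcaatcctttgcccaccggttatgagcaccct
Cox6a1: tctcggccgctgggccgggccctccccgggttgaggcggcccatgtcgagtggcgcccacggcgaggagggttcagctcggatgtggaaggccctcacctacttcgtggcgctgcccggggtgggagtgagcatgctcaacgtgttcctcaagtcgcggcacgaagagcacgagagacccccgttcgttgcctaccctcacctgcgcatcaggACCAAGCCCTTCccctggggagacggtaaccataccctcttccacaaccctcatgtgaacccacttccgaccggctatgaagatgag
Cox8b: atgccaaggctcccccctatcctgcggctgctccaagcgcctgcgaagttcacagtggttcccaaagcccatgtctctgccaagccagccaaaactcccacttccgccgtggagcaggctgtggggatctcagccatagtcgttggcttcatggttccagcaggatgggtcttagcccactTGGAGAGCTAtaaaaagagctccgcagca
Cox8a: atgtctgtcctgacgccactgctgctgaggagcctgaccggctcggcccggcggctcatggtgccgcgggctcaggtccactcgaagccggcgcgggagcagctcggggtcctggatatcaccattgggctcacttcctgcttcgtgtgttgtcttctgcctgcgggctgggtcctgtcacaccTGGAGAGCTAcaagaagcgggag

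The muscle-form gene Cox6a2 lies on chromosome 7 (128205435 to 128206387, minus strand) and codes for 97 residues, against 112 for Cox6a1 on chromosome 5 (115345642 to 115348981, minus strand). Cox8b is on chromosome 7 (140898945 to 140900446, minus strand) and Cox8a on chromosome 19 (7215153 to 7217616, minus strand). Cox7a1 is on chromosome 7 (30184144 to 30186078, plus strand) and Cox7a2 on chromosome 9 (79755361 to 79759878, minus strand). Cox7a2l is on chromosome 17 (83501918 to 83517330, minus strand), and 1 pseudogene, Gm6969, shares most of its sequence with it but drew only 0.306% as many counts. Cox4i1 lies on chromosome 8 (120668222 to 120674207, plus strand) and Cox4i2 on chromosome 2 (152754173 to 152765037, plus strand). Emc8 overlaps Cox4i1 on the opposite strand with 5.45% of its counts, and Itgad overlaps Cox6a2 on the opposite strand with 0.717%. The strand setting of the counting is not given, so reads from stretches that overlapping genes share cannot be told apart. Emc8 shared 124 of its 31-base sequences with Cox4i1 (6.76%), and Itgad 40 with Cox6a2 (0.926%), counted on either strand.

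Windows of 250 bases upstream of the transcription start were available from RefSeq (GRCm38.p6) for 6 of the 9 members; Cox4i1, Cox4i2 and Cox6a2 had none. Of these, 3 are shown: the brown fat and muscle forms Cox8b and Cox7a1, and the ubiquitous form Cox6a1, which was lower in cKO by a like amount. The ubiquitous partners Cox8a and Cox7a2 also had windows and were lower by a like amount. Their windows held fewer CpGs than that of Cox6a1 and are described below, so the 3 shown overstate the contrast. Capitals mark matches, on either strand, to the E-box CAGCTG, the ETS site CTTCCGG, the GC box CCGCCC or the TATA box TATAAA, none of which overlap each other.
Cox8b: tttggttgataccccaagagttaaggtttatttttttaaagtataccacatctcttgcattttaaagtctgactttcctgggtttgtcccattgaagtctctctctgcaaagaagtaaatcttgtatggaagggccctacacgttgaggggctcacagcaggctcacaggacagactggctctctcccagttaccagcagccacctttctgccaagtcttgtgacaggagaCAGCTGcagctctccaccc
Cox7a1: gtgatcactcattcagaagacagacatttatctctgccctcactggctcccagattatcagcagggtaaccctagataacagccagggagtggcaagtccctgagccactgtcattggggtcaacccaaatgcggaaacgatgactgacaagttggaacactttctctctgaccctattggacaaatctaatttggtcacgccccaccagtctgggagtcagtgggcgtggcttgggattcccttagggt
Cox6a1: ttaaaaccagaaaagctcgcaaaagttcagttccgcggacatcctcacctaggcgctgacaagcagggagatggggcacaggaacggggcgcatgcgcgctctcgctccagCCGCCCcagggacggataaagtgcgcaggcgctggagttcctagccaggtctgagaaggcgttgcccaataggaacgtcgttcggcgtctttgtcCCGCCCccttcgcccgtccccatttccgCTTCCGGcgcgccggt

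These windows are chr7:140900447-140900696 (minus strand), chr7:30183921-30184170 (plus strand) and chr5:115348959-115349208 (minus strand). The Cox8b window held 1 CpG and 47.2% G+C, with 1 E-box at position -19 from the start. That of Cox7a1 held 4 CpGs and 51.2% G+C and none of the motifs. Cox6a1 had 26 CpGs and 62.8% G+C, an ETS site at -16 and GC boxes at -139 and -44. Over all 32851 windows of this length the median was 6 CpGs and 52.4% G+C, and 13.0% held the E-box, 6.91% the ETS site, 32.7% the GC box and 12.4% the TATA box. The GENCODE start of Cox6a1 lies 23 bases upstream of the RefSeq start and that of Cox7a1 27 bases upstream, so the last bases of both windows are transcribed in that annotation. The ubiquitous forms differed among themselves: the Cox7a2 window had 14 CpGs and 1 GC box, and that of Cox8a had 11 CpGs and, like Cox7a1, none of the motifs. Motif matches describe the letters only.

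Library totals ran from 10713043 to 32437214 estimated counts. Adcy3 was at 17.95 to 25.3 CPM (counts scaled to library size) in cKO libraries and at 61.7 to 118 CPM in WT libraries, 4.79-fold lower in cKO (edgeR adjusted p = 0.000925). WT replicate 4, at 118 CPM, was among the highest. Brown fat identity was plain in both groups: Ucp1, the uncoupling protein of brown fat, averaged 3167 ± 1025 CPM in cKO and 2571 ± 324 CPM in WT, and heart genes (Myh6, Myl7, Nppa, Tnni3) did not pass 1.42 CPM. Skeletal muscle transcripts, in contrast, varied widely within both groups, and the 16 muscle genes took 0.0198% to 1.19% of counts in cKO libraries and 0.00765% to 0.959% in WT libraries. Transcripts of the mitochondrial genome took 30.2 ± 2.31% of counts in cKO and 26.2 ± 1.48% in WT (SD, n = 4 each; two-sided exact permutation p = 0.0857).

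Per kilobase of transcript, the scale on which different genes can be set side by side, the order of the 9 members was led by Cox6a1 and Cox4i1. Cox6a1 averaged 1345 ± 146 CPM per kilobase in cKO and 1826 ± 245 in WT, and Cox4i1 1186 ± 152 in cKO and 1328 ± 196 in WT (SD, n = 4 each). Cox8b followed at 932 ± 224 in cKO and 1240 ± 176 in WT, above its ubiquitous partner Cox8a at 733 ± 58.0 in cKO and 1019 ± 109 in WT. Cox7a1 stood at 332 ± 49.0 in cKO and 432 ± 24.4 in WT, Cox7a2 at 251 ± 23.3 in cKO and 334 ± 53.0 in WT, and Cox7a2l at 104 ± 6.33 in cKO and 115 ± 15.3 in WT. So, of the brown fat forms, Cox8b and Cox7a1 each exceeded the ubiquitous partner in all 8 libraries, although with the longest annotated transcript in place of the median one Cox7a1 did so in 7. Cox6a2 and Cox4i2 were far below, at 0.183 to 56.6 and 2.44 to 5.85 CPM per kilobase over the 8 libraries. Down the order per kilobase, each gene exceeded the next in all 8 libraries, apart from Cox4i1 and Cox6a2. Cox4i1 exceeded Cox8b in 7 of 8, and Cox6a2 exceeded Cox4i2 in 5 of 8, which makes the last pair unordered.

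**Figure D1:**
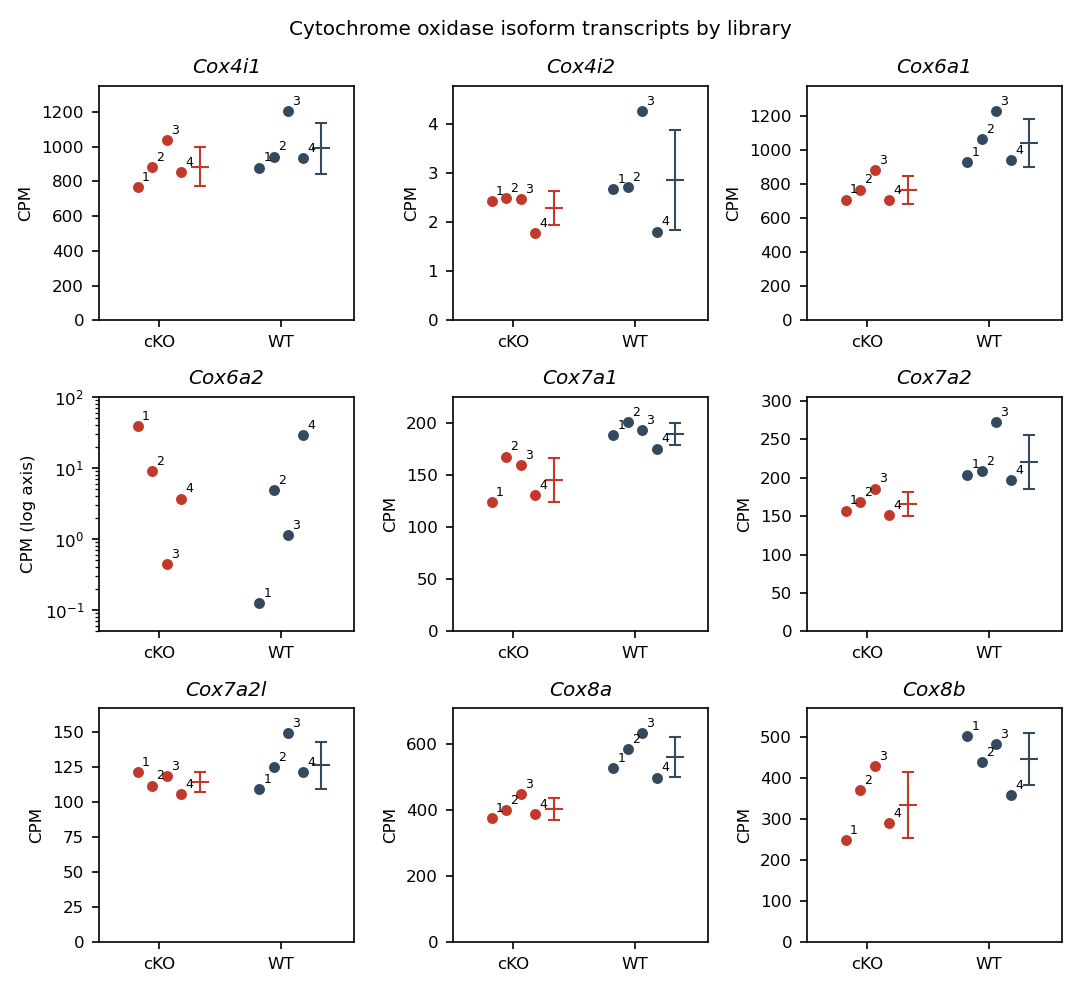
Level of each member in CPM, scaled by TMM, in each cKO (left) and WT (right) library. Numbers give the replicate, bars the mean ± SD (not drawn for Cox6a2, whose axis is logarithmic). Cox6a1, Cox7a1, Cox7a2 and Cox8a do not overlap between groups, and Cox6a2 spans 0.124 to 38.5 CPM.

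Cox6a1, Cox7a1, Cox7a2, Cox8a and Cox8b, which include both brown fat forms and 3 ubiquitous forms, were lower in cKO than in WT with log2 fold changes between -0.47 and -0.38. Of the 9 members, 8 had a negative log2 fold change, with a median of -0.38, against 0.01 over the 14553 genes tested. The 4 genes Cox6a1, Cox7a1, Cox7a2 and Cox8a had their highest cKO library below their lowest WT library, as did 2.27% of all genes tested, and 3.50% did not overlap in either direction. None of the 9 was called by edgeR's quasi-likelihood test at an adjusted p of 0.05, which called 10 genes (0.0687%), 3 of them lower in cKO (0.0206%). At an unadjusted edgeR p under 0.05, 5 members were lower; 3.45% of all genes were, and 5.60% passed in either direction. Of the 5, Cox8b no longer passed without cKO replicate 1 or 4 or without WT replicate 1, 2 or 3, and the others passed with any 1 library left out. A log2 fold change below -0.25 was seen in 6 members, as in 13.9% of all genes. With the transcripts of the mitochondrial genome removed from the table, the log2 fold change was -0.47 for Cox8a, -0.43 for Cox6a1, -0.40 for Cox7a2 and -0.38 for Cox7a1. In bulk tissue, fewer cells of a type and less RNA per cell cannot be told apart.

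Cox8a, the ubiquitous subunit 8, had the most negative log2 fold change of the 9. It was at 376, 400, 449 and 388 CPM in cKO replicates 1 to 4, against 526, 585, 632 and 498 CPM in WT replicates 1 to 4. Every cKO library was below every WT library. The means were 403 ± 31.9 CPM in cKO and 560 ± 60.1 CPM in WT, a log2 fold change of -0.47 (SE 0.12, 95% interval -0.72 to -0.22) with an edgeR adjusted p of 0.493. DESeq2's Wald test called Cox8a (adjusted p = 0.0123) among 46 genes (0.316% of those tested), and no other member. Without WT replicate 4 the log2 fold change of Cox8a was -0.52, and without cKO replicate 1 it was -0.43.

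Cox8b, the muscle and brown fat form, was at 250, 372, 430 and 291 CPM in cKO, against 503, 440, 483 and 360 CPM in WT. The groups overlapped, since cKO replicates 2 and 3 were above WT replicate 4. Its log2 fold change was -0.41 (95% interval -0.78 to -0.04; edgeR adjusted p = 0.882). Without WT replicate 4 it was -0.49, and without cKO replicate 1, the lowest library, it was -0.29.

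Cox6a1, the ubiquitous subunit 6a, was at 710, 769, 886 and 708 CPM in cKO, against 932, 1067, 1231 and 941 CPM in WT. No cKO library reached the lowest WT library. The means were 768 ± 83.5 CPM in cKO and 1043 ± 140 CPM in WT, and the log2 fold change was -0.44 (SE 0.13, 95% interval -0.72 to -0.16; edgeR adjusted p = 0.784). DESeq2 gave an adjusted p of 0.126. Its muscle counterpart Cox6a2 showed no group pattern of this kind. It was at 38.5, 9.09, 0.444 and 3.71 CPM in cKO, against 0.124, 4.86, 1.14 and 29.0 CPM in WT. Both groups held high and low libraries, and the log2 fold change was 0.60 with an interval of -3.48 to 4.69 (edgeR adjusted p = 0.977). The smallest values rested on 7 counts in cKO replicate 3 and 4 counts in WT replicate 1. Exact Poisson intervals, which cover counting error only, ran from 0.179 to 0.915 CPM for cKO replicate 3 and from 0.0339 to 0.319 CPM for WT replicate 1.

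Both interchangeable forms of subunit 7a were lower without overlap. Cox7a1, the muscle and brown fat form, was at 124, 168, 160 and 131 CPM in cKO, against 188, 201, 194 and 176 CPM in WT. Its log2 fold change was -0.38 (95% interval -0.65 to -0.12; edgeR adjusted p = 0.844). Cox7a2, the ubiquitous form, was at 157, 169, 186 and 151 CPM in cKO, against 204, 208, 272 and 197 CPM in WT, with a log2 fold change of -0.41 (interval -0.69 to -0.13; edgeR adjusted p = 0.812). For both, the highest cKO library lay just under the lowest WT library. Cox7a2l was at 122, 112, 119 and 106 CPM in cKO, against 109, 125, 150 and 122 CPM in WT, and the groups overlapped (log2 fold change -0.14 with a 95% interval of -0.39 to 0.11; edgeR adjusted p = 0.901). The value for Cox7a2l was -0.05 without WT replicate 3, its highest library, and -0.20 without WT replicate 1.

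The forms of subunit 4 overlapped between groups. Cox4i1, the ubiquitous form, was at 765, 882, 1036 and 852 CPM in cKO, against 879, 942, 1204 and 932 CPM in WT (log2 fold change -0.16 with an interval of -0.46 to 0.13; edgeR adjusted p = 0.903). It was -0.05 without WT replicate 3, -0.09 without cKO replicate 1 and -0.25 without cKO replicate 3. Cox4i2 was near the lower end of detection at 2.44, 2.50, 2.48 and 1.78 CPM in cKO, against 2.67, 2.71, 4.27 and 1.81 CPM in WT (log2 fold change -0.33 with an interval of -0.96 to 0.31; edgeR adjusted p = 0.917). Cox4i2 was at -0.07 without WT replicate 3 and at -0.54 with WT replicate 4 moved to cKO. These values came from 24 to 39 counts in cKO libraries and 24 to 86 counts in WT libraries.

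The other genes of the list lay on both sides of 0. Of 15 other genes on the list (the remaining subunits, and Cycs, the cytochrome c that feeds the enzyme), 13 were tested; Cox7b2 and Cox8c had 0 counts. 7 were positive and 6 negative, with a median log2 fold change of 0.03 and no edgeR p under 0.05, and DESeq2 called none of them. Among the 6 most abundant were the catalytic subunits of the mitochondrial genome: mt-Co1 averaged 62857 ± 1940 CPM in cKO and 54849 ± 4726 CPM in WT, higher without overlap (log2 fold change 0.20, interval -0.05 to 0.44), and mt-Co3 and mt-Co2 had log2 fold changes of 0.26 and 0.36. The abundant nuclear-encoded subunits Cox5a, Cox6b1 and Ndufa4 were at -0.09, -0.08 and -0.12. Cox6c and Cox5b were at -0.16 and -0.14, and Cox7b and Cox7c at 0.03 and 0.05. Of these abundant nuclear-encoded subunits, only Cox7b and Cox7c were positive. Among the scarce ones, Cox6b2 (2.10 CPM in cKO, 1.67 in WT) was also positive at 0.35. Ndufa4l2 (4.88 CPM in cKO, 6.58 in WT) was at -0.43. The positive values of the list included the catalytic subunits and Cycs (0.22), so its median does not describe the nuclear-encoded subunits alone.

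**Figure D2:**
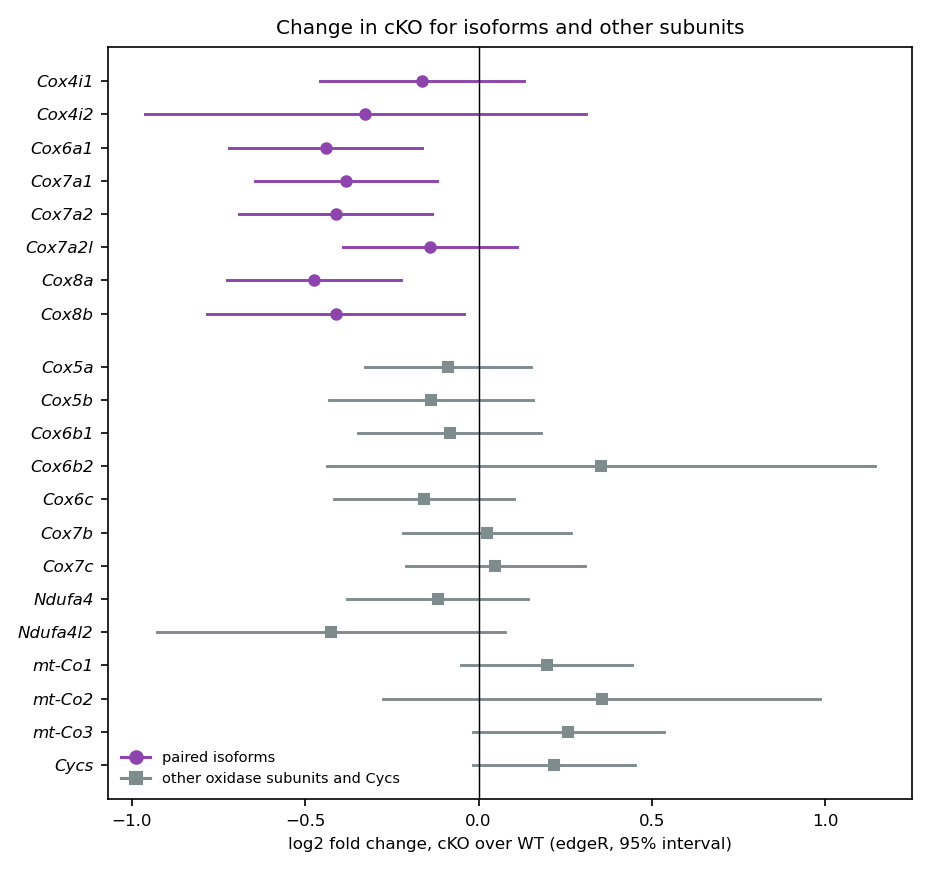
Log2 fold change of cKO over WT with its 95% interval from edgeR (horizontal axis) for 8 of the members and for the 13 other genes of the list that were tested. Cox6a2 is left out because its interval, -3.48 to 4.69, would set the scale. Intervals of Cox6a1, Cox7a1, Cox7a2, Cox8a and Cox8b lie below 0.

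Each member was next divided by the geometric mean of 6 nuclear-encoded subunits without a partner in this set (Cox5a, Cox5b, Cox6b1, Cox6c, Cox7b, Cox7c) in the same library. By this ratio, which does not depend on library scaling, Cox8a was at 0.969 to 1.13 in cKO and 1.28 to 1.45 in WT. Cox6a1 was at 1.86 to 2.13 in cKO and 2.35 to 2.76 in WT, Cox7a1 at 0.347 to 0.407 in cKO and 0.434 to 0.498 in WT, and Cox7a2 at 0.400 to 0.471 in cKO and 0.506 to 0.609 in WT. These 4 remained without overlap, the log2 differences being -0.40 for Cox8a, -0.37 for Cox6a1, -0.32 for Cox7a1 and -0.33 for Cox7a2. The share of all genes without overlap by this ratio was not computed. The 6 subunits were named after their values were seen, so the ratio is not an independent test. Cox8b, at 0.749 to 0.973 in cKO and 0.924 to 1.27 in WT, overlapped through 1 library of cKO and 1 of WT. The 9 members together took 0.272 ± 0.0316% of counts in cKO and 0.373 ± 0.0584% in WT (SD, n = 4 each).

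Genes with transcripts under 800 bases, the class of 8 members, numbered 1394 with a median log2 fold change of -0.04, and 4.30% of them were lower in cKO without overlap. Among the 193 such genes above 100 CPM, 6.22% were. Their part in the members' result was not tested.

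The levels of certain members kept a nearly fixed ratio across the libraries. Cox6a1 and Cox8a had a count ratio of 1.77 to 1.97 over all 8 libraries, and the ratio of Cox6a1 to Cox7a2 lay between 4.52 and 5.13. The ratio of Cox7a2 to Cox8a lay between 0.356 and 0.430. These 3 ubiquitous forms made the tightest pairs of all those among the members, and they varied less against each other than any of them did against Cox4i1. All 3 are among the members without overlap between groups, so that count does not rest on separate observations.

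The ratio of a tissue form to its ubiquitous partner within a library asks whether the mix of their transcripts differs between groups. Protein was not measured. Cox8b exceeded Cox8a per kilobase by factors of 1.02, 1.42, 1.46 and 1.15 in cKO, against 1.46, 1.15, 1.17 and 1.10 in WT. The groups overlapped fully, and the log2 difference was 0.04 (95% interval -0.34 to 0.42; two-sided exact permutation p = 0.886, adjusted over the 5 ratios 0.943). Cox7a1 exceeded Cox7a2 per kilobase by factors of 1.19, 1.497, 1.29 and 1.30 in cKO, against 1.39, 1.45, 1.07 and 1.34 in WT. Here too the groups overlapped, with a log2 difference of 0.01 (interval -0.28 to 0.31; exact permutation p = 0.943). The brown fat form therefore made up 55.5 ± 4.31% of the subunit 8 transcripts in cKO and 54.8 ± 3.10% in WT. It made up 56.8 ± 2.36% of the Cox7a1 and Cox7a2 transcripts in cKO and 56.6 ± 3.37% in WT (per kilobase, SD, n = 4 each). These shares rest on the annotated lengths, since counts alone put both brown fat forms below their partners.

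Cox7a2l against Cox7a2 was the ratio whose groups did not overlap. It was 0.464, 0.398, 0.382 and 0.421 in cKO, against 0.321, 0.360, 0.328 and 0.369 in WT. All 4 cKO libraries were above all 4 WT libraries, and the log2 difference was 0.27 (interval 0.08 to 0.46). The two-sided exact permutation p was 0.0286, the smallest that 70 splits allow, and 0.143 after adjustment over the 5 ratios. The exact permutation p was 0.0571 without cKO replicate 1 (log2 difference 0.22), without WT replicate 1 (0.24) or without WT replicate 3 (0.25). This ratio also tended to be higher in libraries with more skeletal muscle transcripts, by the muscle score described with Cox6a2 (r = 0.71 over the 8 libraries, exact permutation p = 0.0511, adjusted over 5 ratios 0.0852; rho = 0.71; r = 0.72 without the 2 farthest libraries). With the score removed by a linear fit the log2 difference was 0.21 (exact permutation p = 0.0286, adjusted over the 5 ratios 0.143). That fit was made over all 8 libraries without regard to group. Of its parts, Cox7a2 was lower in cKO without overlap and Cox7a2l overlapped between groups. Cox4i2 over Cox4i1 lay between 0.00213 and 0.00326 in cKO and between 0.00198 and 0.00362 in WT (log2 difference -0.11, interval -0.66 to 0.45; exact permutation p = 0.686). Its difference was -0.36 with WT replicate 4 moved to cKO.

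**Figure D3:**
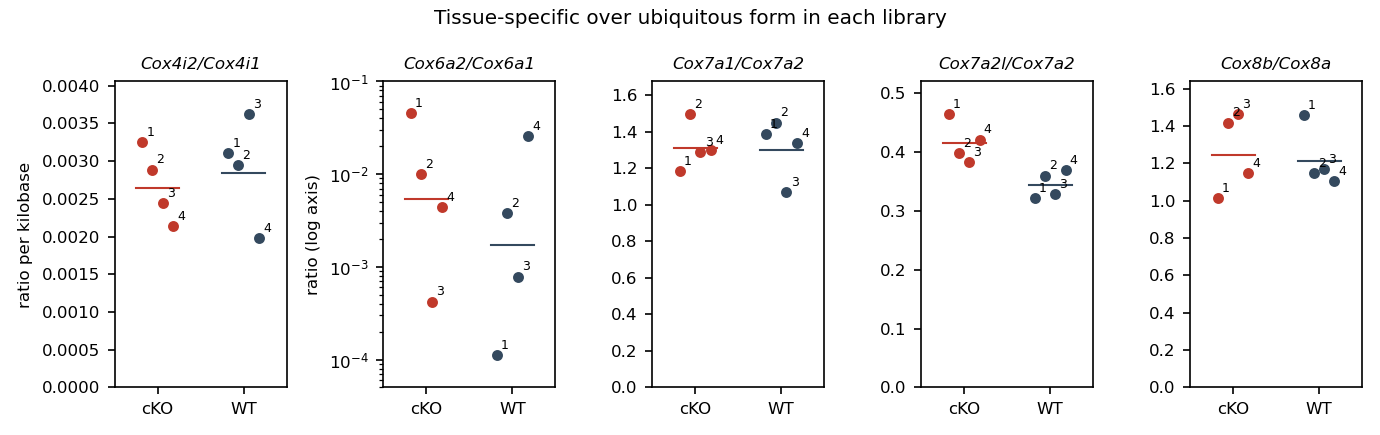
Ratio of the tissue-restricted (or, for Cox7a2l, related) form to the ubiquitous form per kilobase of transcript in each cKO (left) and WT (right) library; numbers give the replicate and lines the geometric mean. The axis of Cox6a2 over Cox6a1 is logarithmic, and Cox7a2l over Cox7a2 is the panel without overlap.

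Cox6a2 over Cox6a1 was 0.0455, 0.00993, 0.000421 and 0.00440 in cKO, against 0.000112, 0.00382, 0.000784 and 0.0259 in WT. It varied 406-fold from the lowest to the highest library, with cKO replicate 1 and WT replicate 4 at the top and WT replicate 1 at the bottom. The log2 difference of 1.65 had an interval of -3.70 to 6.995 (exact permutation p = 0.457). It was 0.34 without WT replicate 1, 0.62 without cKO replicate 1, 2.87 without cKO replicate 3, 2.95 without WT replicate 4, and 0.21 with the muscle score removed. The Cox6a2 form made up at most 4.36% of the subunit 6a transcripts, in cKO replicate 1.

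The libraries high in Cox6a2 were those high in skeletal muscle transcripts. The muscle score, the mean log2 CPM of 16 skeletal muscle genes that include no member, was 8.98, 7.14, 3.10 and 6.66 in cKO replicates 1 to 4, against 1.45, 6.40, 4.28 and 8.61 in WT (exact permutation p = 0.543). Over the 8 libraries log2 Cox6a2 followed this score with Pearson's r = 0.991 (exact permutation p = 4.96e-05, adjusted over the 9 members 0.000446) and Spearman's rho = 0.976 (exact permutation p = 0.000397). Without WT replicate 1 and cKO replicate 3, the libraries farthest from the median score, r was 0.983 (exact permutation p = 0.00278), and with group means removed it was 0.991. Cox6a2 was higher by 0.97 log2 units for each unit of the score, close to proportion. Among 5 ratios, that of Cox6a2 to Cox6a1 had r = 0.995 with the score (exact permutation p = 2.48e-05, the smallest possible; adjusted 0.000124) and rho = 1.

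The proportion can be read directly from the counts of single muscle genes. Cox6a2 counts were 1.86%, 1.96%, 1.79% and 0.985% of those of Acta1, the skeletal muscle actin, in cKO, against 1.67%, 1.49%, 1.68% and 2.09% in WT. Acta1 itself varied 277-fold, between 7.46 and 2069 CPM. A similar proportion held for Tnnc2, the fast muscle troponin C, at 6.63% to 11.7% over all 8 libraries. The loosest was Myl1, a muscle myosin light chain, at 0.384% to 12.1%. The 3 genes outside the members whose log2 CPM was most like that of Cox6a2 over the 8 libraries, of 9919 with at least 5 CPM, were Eno3 (r = 0.997), Klhl41 (r = 0.997) and Rpl3l (r = 0.995), all known as muscle genes.

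**Figure D4:**
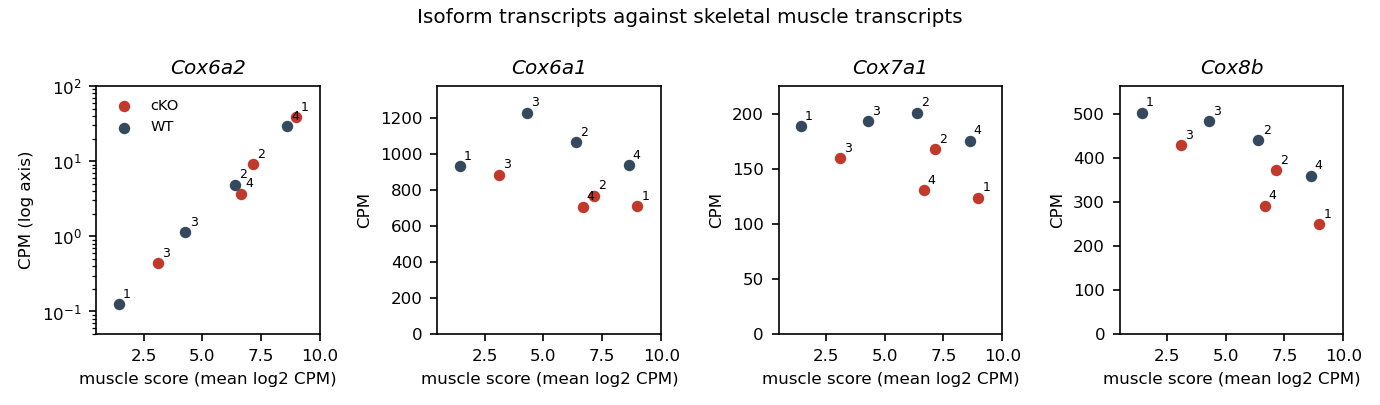
Level in CPM of Cox6a2 (logarithmic axis), Cox6a1, Cox7a1 and Cox8b against the muscle score, the mean log2 CPM of 16 skeletal muscle genes, in each cKO and WT library; numbers give the replicate. Cox6a2 follows the score along 1 line for both groups (r = 0.991), while Cox8b is lower in the libraries with a high score (r = -0.78).

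Of the other muscle-associated forms, neither Cox8b nor Cox7a1 was higher where muscle transcripts were higher. Cox8b went the other way, with r = -0.78 over the 8 libraries (exact permutation p = 0.0222, adjusted over the 9 members 0.100) and rho = -0.86 (exact permutation p = 0.0107). Without the 2 farthest libraries r was -0.75 (exact permutation p = 0.0792). Cox7a1 had r = -0.46 (exact permutation p = 0.250), and the ubiquitous forms Cox4i1, Cox6a1, Cox7a2 and Cox8a lay between -0.42 and -0.47. Without the 2 farthest libraries r was -0.83 for Cox4i1 (exact permutation p = 0.0458), -0.69 for Cox7a2, -0.66 for Cox6a1, -0.65 for Cox8a and -0.55 for Cox7a1, so that Cox8b did not stand apart from them. For Cox4i1 r was -0.78 without WT replicate 1 alone. Cox4i2 was at -0.46 (-0.72 without the 2 farthest libraries) and Cox7a2l at 0.01 (-0.54), and none of these passed adjustment over the 9 members. Cox8b over Cox8a had r = -0.74 with the score (exact permutation p = 0.0374, adjusted 0.0852), which dropped to -0.35 without the 2 farthest libraries.

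With the muscle score as a covariate in the edgeR fit, the log2 fold changes were -0.44 for Cox8a, -0.41 for Cox6a1, -0.38 for Cox7a2, -0.35 for Cox7a1 and -0.31 for Cox8b. Without cKO replicate 1 and WT replicate 4, the libraries of highest score, they were -0.49 for Cox8a, -0.44 for Cox6a1, -0.43 for Cox7a2, -0.34 for Cox7a1 and -0.38 for Cox8b. That of Cox6a2 turned to -0.19 with the covariate.

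Cox4i2 was set against markers of mural cells (pericytes and vascular smooth muscle), in which it is known to be expressed. Their mean log2 CPM was 4.90 ± 0.115 in cKO and 4.97 ± 0.191 in WT (SD, n = 4 each). The relation over the 8 libraries had r = 0.51 (exact permutation p = 0.193) and rho = 0.31, and r was -0.20 without the 2 libraries farthest from the median. The genes most like 3 members were also picked as the highest r among 9919 genes. With only 8 libraries such picked values can be high by chance, and they were not tested. The genes most like Cox4i2 were Sdsl (r = 0.955), Emg1 (r = 0.954) and Lsm7 (r = 0.954). Those most like Cox7a1 were Taf1a (r = 0.963), Mrpl9 (r = 0.957) and Gm10053 (r = 0.957). Those most like Cox8b were Rps29 (r = 0.970), Ndufv1 (r = 0.962) and Ndufa9 (r = 0.960), of which the last pair are subunits of complex I.

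Among 22 assembly factors of the enzyme, 21 were tested, with a median log2 fold change of 0.05 and no call by edgeR. Cox15, which makes the heme a of the enzyme, was the 1 with an unadjusted edgeR p under 0.05, at 0.37 (adjusted p = 0.882). Of 14 regulators that have been tied to respiratory genes or to these isoforms, none was called by edgeR; Rbpj, a factor for the Cox4i2 promoter in human cells, was at 0.31 (adjusted p = 0.884), and Lonp1, a mitochondrial protease that degrades a Cox4 isoform, at -0.25 (adjusted p = 0.882). DESeq2 likewise called no assembly factor and no regulator, and 2 of the regulators, Rbpj and Lonp1, had an unadjusted edgeR p under 0.05. Of 8 brown adipocyte genes 7 were positive and 1 negative, with a median of 0.33, and Prdm16, a regulator of brown fat identity, was at 0.79 (edgeR adjusted p = 0.242; DESeq2 adjusted p = 0.00396).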

How the data were processed

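Polyadenylated RNA of 8 brown fat libraries was measured by paired-end sequencing, with a NEBNext Ultra II library kit per the labels' protocols. The authors deposited 1 table of estimated counts per Ensembl gene. StringTie, Salmon and edgeR are named with the build GRCm38 in the submitters' processing notes; for the aligner, annotation release and strand setting, nothing was given in the sources used. Counts of this type divide reads among the transcripts they could come from.

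GENCODE M21 named 54131 of 54385 identifiers (99.5%), and every column matched 1 library. Estimated counts were rounded, filtered with filterByExpr to 14553 genes, scaled by TMM and tested by quasi-likelihood with robust dispersion (edgeR 4.0.16 under R 4.3.3), adjusted over all genes by Benjamini-Hochberg at 0.05. DESeq2 1.42.0 and limma-voom (limma 3.58.1) were alternatives. The edgeR step was checked on simulated data before use. CPM per kilobase used the median length of annotated protein-coding transcripts. Log2 CPM carried a prior count of 2, and intervals are at 95%. Ratios and correlations were tested with exact permutation over libraries (scipy 1.17.1).

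Libraries were grouped by title. Same-numbered libraries did not deviate together, so numbers were not treated as pairs, and no libraries agreed within sampling noise (smallest chi-square per degree of freedom 14.5). The genes named are the 9 members, Adcy3, called genes of the lists, the 6 most abundant other oxidase genes, marker genes, and the 3 genes most like Cox4i2, Cox6a2, Cox7a1 and Cox8b. Single-form subunits, Cox6b2, Ndufa4l2, Cox15, Rbpj, Lonp1, Tnnc2 and Myl1 were named after their values were seen. The members and lists were chosen with earlier results of these data known. Alternatives covered scaling, test, filter, omission of single libraries, a replicate block, muscle transcripts, WT replicate 4 as cKO and pseudogene copies.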

Additional observations from a re-analysis of the deposited data

Results flagged for a closer look

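Among 28 sets of 4 libraries examined for a library far from the rest (Dixon's gap over range at the 95% critical value), 2 were found; chance alone flags about 1 in 20. In cKO, Cox4i2 was at 1.78 CPM in replicate 4, with a gap of 0.931 of the range to the nearest other library. In WT, Cox7a2 was at 272 CPM in replicate 3, with a gap of 0.830.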

How the results depend on the processing

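The log2 fold changes of Cox6a1, Cox7a1, Cox7a2, Cox8a and Cox8b stayed negative under all 19 alternatives run for each. Cox8a, not called by edgeR as planned, was called by DESeq2 (-0.47, adjusted p = 0.0123) and by edgeR without the filter on low counts (-0.49, adjusted p = 0.0480), and over its alternatives the adjusted p ran from 0.0123 to 0.997. Over all genes, 10 were called; DESeq2 called 46, edgeR without the filter 93, and edgeR with WT replicate 4 moved to cKO 1, and leaving out 1 library gave 8 to 14. The cause was not tested. Cox6a2 turned negative with the muscle score as a covariate (-0.19) and ran from -0.99 to 2.81 with 1 library left out, being -0.99 without cKO replicate 1. With 1 library left out, the log2 ratio of Cox4i2 to Cox4i1 ran from -0.28 to 0.010, that of Cox7a1 to Cox7a2 from -0.084 to 0.064 and that of Cox8b to Cox8a from -0.037 to 0.14; that of Cox6a2 to Cox6a1 ran from 0.34 to 2.95 and that of Cox7a2l to Cox7a2 from 0.22 to 0.31. With WT replicate 4 moved, Cox8b to Cox8a was -0.041, Cox4i2 to Cox4i1 -0.36 and Cox6a2 to Cox6a1 3.41; without both libraries of highest muscle score, Cox4i2 to Cox4i1 was -0.38. The correlation of Cox7a2l with the muscle score was -0.013 without TMM, -0.54 without the 2 farthest libraries, and -0.33 to 0.38 with 1 left out.

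Samples with the same number correlated at -0.46, 0.03, 0.41 and 0.00, and none best with its own number. The replicate block in edgeR gave 7 calls against 10 without it and called no member (Cox8a -0.47, adjusted p = 0.412), and for the ratios it allows no exact p below 0.125. Removing the mitochondrial genome, or both libraries of highest muscle score, was chosen after seeing the data. Depth limits Cox6a2 and Cox4i2, whose lowest libraries held 4 and 24 counts.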
